A study of Mus musculus with 14 samples.

Results

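Fired recycled carbon fibre (RCF) was compared with virgin carbon fibre (VCF) in mouse lung, 6 months after the fibres had been instilled into the airway. The arrays were selected by the group in their titles, 4 RCF and 4 VCF, which makes 8 of the 14 arrays of the series. All mice were male C57BL/6N mice, and each array held RNA from the lung of a separate animal, so that p-values measure the spread between animals. VCF mice had received 200 µg of carbon fibre as it was before recycling, and RCF mice the same mass of fibre that had been through firing, both by the intratracheal route. The other arrays were 3 from mice given the PBS vehicle (Ctrl) and 3 from mice given 200 µg of fibre after carbonization (CCF). The animals' age, the hour of lung removal and the length, diameter and number of the fibres are not given in the sources used here.

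Carbon fibres are bound into composites with resin. Recycling heats the composite to remove the resin and free the fibre. In the lung, fibres that settle beyond the airway cilia meet alveolar macrophages, which take up what they can and release chemokines that call monocytes, neutrophils and other leukocytes. Particles that persist can go on to chronic inflammation, oxidative stress, remodelling of the matrix, or growth of epithelium and pleura. Genes of these responses, of lung cell types and of the circadian clock, a transcriptional feedback loop that runs in lung cells, were therefore described as 44 lists.

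Labelled RNA was measured on single-colour Agilent arrays, and a gene's level is the log2 of its processed signal minus the array's 75th percentile. A difference is RCF minus VCF on that log2 scale. The 14 arrays were alike in quality: their 75th percentile lay between 724.7 and 1345.6 intensity units, no spot was saturated, and correlations between arrays lay between 0.968 and 0.990. The lung markers Sftpc and Sftpb (surfactant proteins), Ager (type 1 cells), Scgb1a1 (club cells) and Cdh5 (endothelium) were well above background on all 14 arrays. Each of the 4 slides, with its own scan session, carried 1 RCF and 1 VCF array. RCF replicate 1 stood apart by a raised mean of liver genes and VCF replicate 1 by a raised mean of adipose genes, and results that touch them are given with and without these arrays below.

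No probe passed the test between RCF and VCF lung. With limma, 0 of 29269 probes (0%) met the Benjamini-Hochberg threshold of 0.05, the lowest adjusted p being 0.109. In the same fit 3 probes (0.0102%) passed between VCF and Ctrl. At an unadjusted p under 0.05 there were 1548 probes (5.29%), of which 450 (1.54%) were higher and 1098 (3.75%) lower in RCF. The RCF arrays lay wholly above the VCF arrays for 404 probes (1.38%) and wholly below for 742 (2.54%). Among 14468 named genes, each taken at its brightest probe, 256 (1.77%) were higher and 185 (1.28%) lower at that level, and the median difference was 0.011, with 52.6% of genes above 0 and 47.4% below. The 4 RCF arrays lay wholly above the 4 VCF arrays for 228 genes (1.58%) and wholly below for 182 (1.26%). The split depended on the scaling: with each array scaled by its median, 878 of 1587 probes at that level were higher in RCF, and after quantile normalization 662 of 1507.

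Every gene named below therefore stands as a measured difference that missed the threshold. Genes whose arrays do not overlap have an exact two-sided permutation p of 0.0286, the smallest that 4 against 4 arrays can give. The leading genes were chosen for not overlapping, so for them this p follows from the choice and gives no support. For the leading genes, those with the smallest p among genes whose RCF and VCF arrays do not overlap, the level on each array comes first.

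Prdm8, a PR domain zinc finger protein of the histone methyltransferase family, had the smallest p of all named genes. Its log2 level was -1.35, -1.21, -1.23 and -0.84 in VCF replicates 1 to 4 and -0.035, 0.060, -0.46 and -0.051 in RCF replicates 1 to 4. All 4 RCF arrays were above all 4 VCF arrays, and the 3 Ctrl arrays, at -0.34, -0.50 and -0.63, lay between the VCF mean and the RCF mean. The difference was 1.04 (SE 0.15, a 2.05-fold higher level in RCF), with a limma adjusted p of 0.109. Within the 4 slides it ranged from 0.74 to 1.41. Against Ctrl, Prdm8 differed by -0.67 in VCF and by 0.37 in RCF.

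Map2k6 encodes MKK6, a kinase that activates the p38 stress kinases. Its level was -1.80, -1.74, -1.75 and -1.23 in VCF and -0.66, -0.76, -1.17 and -0.74 in RCF, a difference of 0.80 (SE 0.16, limma adjusted p = 0.539). The Ctrl arrays, at -1.02, -0.74 and -1.11, lay among the RCF arrays, so that the VCF arrays stood apart from both. Herc3, a HECT-type ubiquitin ligase, was also lowest in the VCF arrays: 0.19, 0.18, 0.034 and 0.14 in VCF, 1.0, 0.79, 0.56 and 0.59 in RCF and 0.36, 0.62 and 0.44 in Ctrl, with a difference of 0.60 (SE 0.12).

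A further set of leading genes was higher in RCF with smaller differences. They were Pbld1 (0.62, SE 0.12), Nmnat3, which makes NAD in mitochondria (0.49, SE 0.11), Esyt3, a lipid-transfer protein of membrane contact sites (0.51, SE 0.13), Depdc7 (0.51, SE 0.13) and Mpzl1, a cell surface glycoprotein (0.43, SE 0.11). Cdc14b, a phosphatase, was higher by 0.70 (SE 0.17), but its probe was well above background on only 1 of the 4 VCF arrays, and a second Cdc14b probe, measured on all 8, differed by 0.19 (SE 0.12). For Esyt3 and Nmnat3, VCF was below Ctrl (-0.46 and -0.16) and RCF above it (0.051 and 0.33). Pbld1 and Mpzl1 were above Ctrl in both fibre groups, by 0.41 and 0.14 in VCF and by 1.03 and 0.57 in RCF. Both comparisons with Ctrl use the same 3 Ctrl arrays.

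Ccl12, a CC chemokine that attracts monocytes through the receptor CCR2, had the largest difference of the leading genes. Its level was -1.51, -1.57, -1.06 and -0.75 in VCF and -2.80, -2.59, -1.90 and -2.19 in RCF, with -1.23, -0.32 and -1.14 in Ctrl. The RCF arrays were below every VCF and every Ctrl array, and the difference from VCF was -1.15 (SE 0.29, limma adjusted p = 0.676), a 2.21-fold lower level in RCF. Within slides the difference ranged from -1.74 to -0.33. Fam107a, an actin-binding protein that glucocorticoids induce, was -0.89, -1.77, -1.62 and -1.57 in VCF, -2.26, -2.55, -2.13 and -2.80 in RCF and -1.42, -1.0 and -0.89 in Ctrl. Its difference was -0.97 (SE 0.23), a 1.97-fold lower level in RCF.

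For Medag and Hrh3 the RCF arrays were likewise below every VCF and Ctrl array. Medag, which takes part in fat cell formation, differed by -0.55 (SE 0.13) between RCF and VCF and by -0.029 between VCF and Ctrl. Hrh3, the histamine H3 receptor, differed by -0.76 (SE 0.18) and -0.012. For Grb10 the VCF arrays were the ones apart from Ctrl. Grb10, an adaptor that dampens insulin receptor signalling, was -3.35, -3.04, -3.33 and -3.27 in VCF, -4.78, -4.54, -3.79 and -4.18 in RCF and -4.97, -4.70 and -4.05 in Ctrl, a difference of -1.07 (SE 0.25) between the fibres. The other 2 Grb10 probes differed by -0.29 (SE 0.13) and -0.042 (SE 0.35).

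Sprtn, a protease that clears DNA-protein crosslinks, differed by -0.98 (SE 0.24) between RCF and VCF, and in RCF its probe was well above background on only 2 of the 4 arrays. Against Ctrl, it differed by 1.08 in VCF and by 0.093 in RCF. Eif2ak4, the amino acid sensing kinase GCN2, differed by -0.80 (SE 0.20) at the probe with the smallest p, but by 0.14 (SE 0.14) at its other probe, which has the opposite sign. Pdlim5, a scaffold protein of the cytoskeleton, differed by -0.62 (SE 0.16) at its leading probe. Its other 4 tested probes gave -0.51, -0.51, -0.39 and 0.0046.

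With background corrected by normexp instead, a model that fits signal and background on each array, many of these differences were smaller by more than 1.5 times. Prdm8 was then 0.65, Map2k6 0.38, Arntl, described below, 0.40, Nmnat3 0.32, Esyt3 0.31, Pbld1 0.12, Depdc7 0.059 and Cdc14b 0.0083. On the lower side Grb10 was -0.57, Fkbp5 -0.47, Hrh3 -0.35, Eif2ak4 -0.29 and Sprtn -0.20. Ccl12 (-0.82), Fam107a (-0.73), Per2 (-0.56) and Herc3 (0.52) stayed within 1.5 times of their values.

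**Figure D1:**
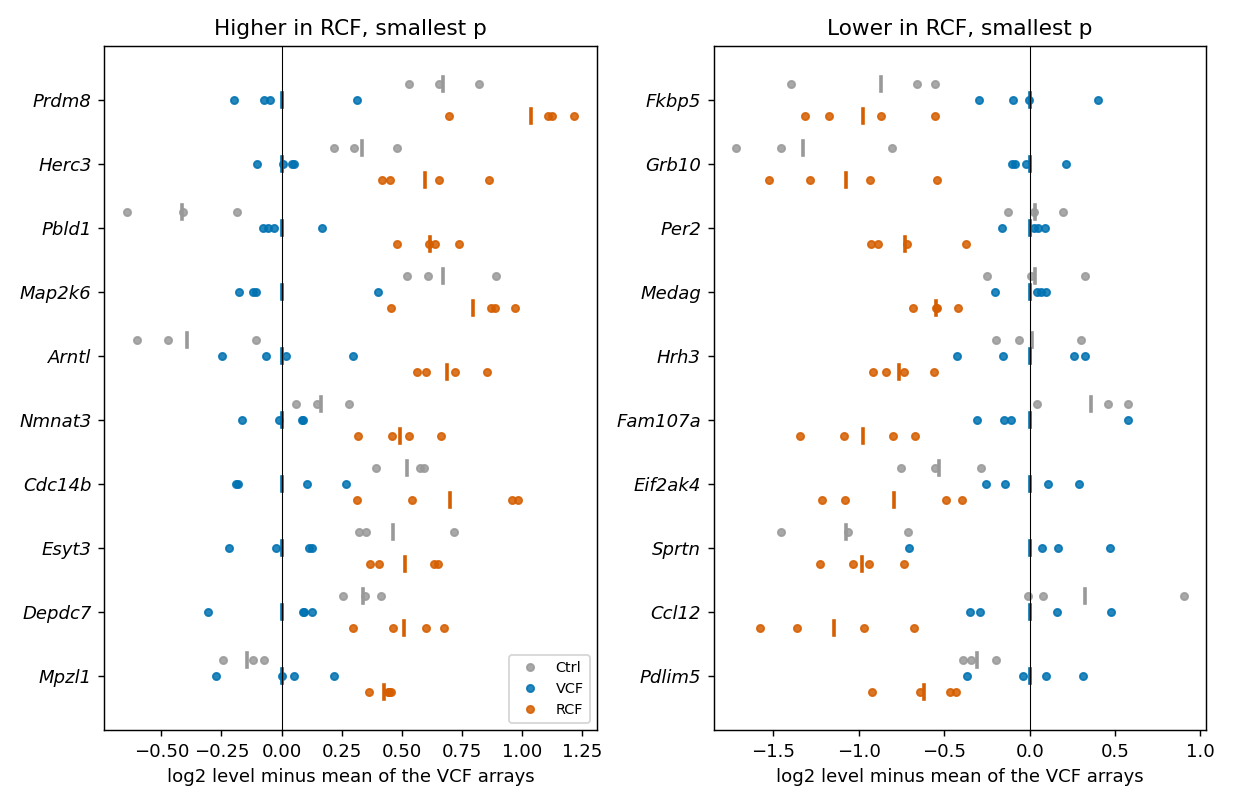
Level of the 20 leading genes on each Ctrl (grey), VCF (blue) and RCF (orange) array, as log2 level minus the mean of the 4 VCF arrays; each point is 1 animal and each tick a group mean. By the rule that chose them, no orange point overlaps a blue one, while the grey Ctrl points lie with RCF for Map2k6 and Grb10, with VCF for Medag, and below all RCF points for Arntl.

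Of the 44 lists, the clock repressors and outputs had the most members below an unadjusted p of 0.05, 5 of 14 and all lower in RCF. In the clock, BMAL1 (the product of Arntl) pairs with CLOCK or NPAS2 and switches on the Per and Cry genes, the nuclear receptors Nr1d1 and Nr1d2 and the output factors Dbp, Tef, Hlf and Ciart by binding E-boxes with the core letters CACGTG. PER and CRY proteins then shut BMAL1 down, and NR1D1 and NR1D2 repress Arntl itself, so that Arntl peaks when its targets are low. Of the 14 repressor and output genes tested, 2 were higher and 12 lower in RCF, with a median of -0.28 against 0.011 over all genes. In this list 0 genes passed, 5 were lower and 0 higher at an unadjusted p under 0.05, and in 3 the RCF arrays lay wholly below the VCF arrays, where 1.28% of all genes were lower at that level and 1.26% lay wholly below. The members and lists had been chosen with earlier results in view, so these counts are a description.

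Arntl was higher in RCF. Its level was -1.90, -1.36, -1.72 and -1.64 in VCF and -0.93, -1.09, -1.05 and -0.80 in RCF, against -2.13, -1.76 and -2.26 in Ctrl. The groups did not overlap between the fibres, and the difference was 0.69 (SE 0.14, limma adjusted p = 0.649), a 1.61-fold higher level in RCF. It ranged from 0.30 to 0.84 within slides. Arntl was higher than in Ctrl by 0.39 in VCF and by 1.08 in RCF.

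Per2, which encodes a repressor of the BMAL1 complex, was lower in RCF. Its level was 0.021, 0.049, -0.17 and 0.087 in VCF, -0.89, -0.72, -0.38 and -0.93 in RCF, and 0.020, -0.13 and 0.19 in Ctrl. All RCF arrays were below every VCF and Ctrl array, with a difference of -0.73 (SE 0.17, limma adjusted p = 0.649). A second Per2 probe differed by 0.085 (SE 0.36). Against Ctrl, Per2 differed by -0.031 in VCF and by -0.76 in RCF.

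Tef, an output transcription factor of the PAR bZIP family, had a narrow spread in RCF: 2.51, 2.54, 2.54 and 2.5, against 3.1, 2.76, 2.78 and 2.86 in VCF and 2.93, 3.14 and 3.28 in Ctrl. The difference was -0.35 (SE 0.11, limma adjusted p = 0.746), and the other 2 Tef probes gave -0.34 and -0.15. After normexp it was -0.20. The remaining members below the unadjusted level, named after their values were seen, were Bhlhe40 (-0.32, SE 0.12), Nr1d2 (-0.42, SE 0.16) and Hlf (-0.32, SE 0.15). Bhlhe40, another repressor of the BMAL1 complex, did not overlap between the groups, with its nearest arrays at 1.74 in VCF and 1.73 in RCF, while Nr1d2 and Hlf did.

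Other members of the loop had overlapping arrays. Ciart, a repressor with strong rhythm, was -2.25, -2.08, -3.17 and -2.74 in VCF and -3.35, -2.91, -2.59 and -3.65 in RCF (difference -0.57, SE 0.29). Dbp differed by -0.24 (SE 0.14) and Nr1d1 by -0.33 (SE 0.22). The positive differences in this list were Nfil3 at 0.80 (SE 1.32), where VCF replicate 1 was at -1.50 and the other VCF arrays between 0.077 and 0.52, and Per1 at 0.13 (SE 0.32). Per1 is also a direct glucocorticoid target. Among the 5 activators tested, Arntl apart, Npas2 differed by 1.01 (SE 0.52) but was well above background on 0 VCF and 2 RCF arrays. Over the alternative settings that tested Npas2, its difference ranged from 0.019 to 1.33. Clock, at -0.083 (SE 0.14), overlapped between the groups.

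The mean of the 14 repressor and output genes, relative to Ctrl, ranged from -0.25 to -0.05 in the VCF arrays and from -0.46 to -0.28 in the RCF arrays. In Ctrl it ranged from -0.24 to 0.15, and in the 3 CCF arrays from -0.64 to 0.095, which spans both the VCF and the RCF range. The list's median was negative in each of the 4 slides, between -0.45 and -0.19.

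**Figure D2:**
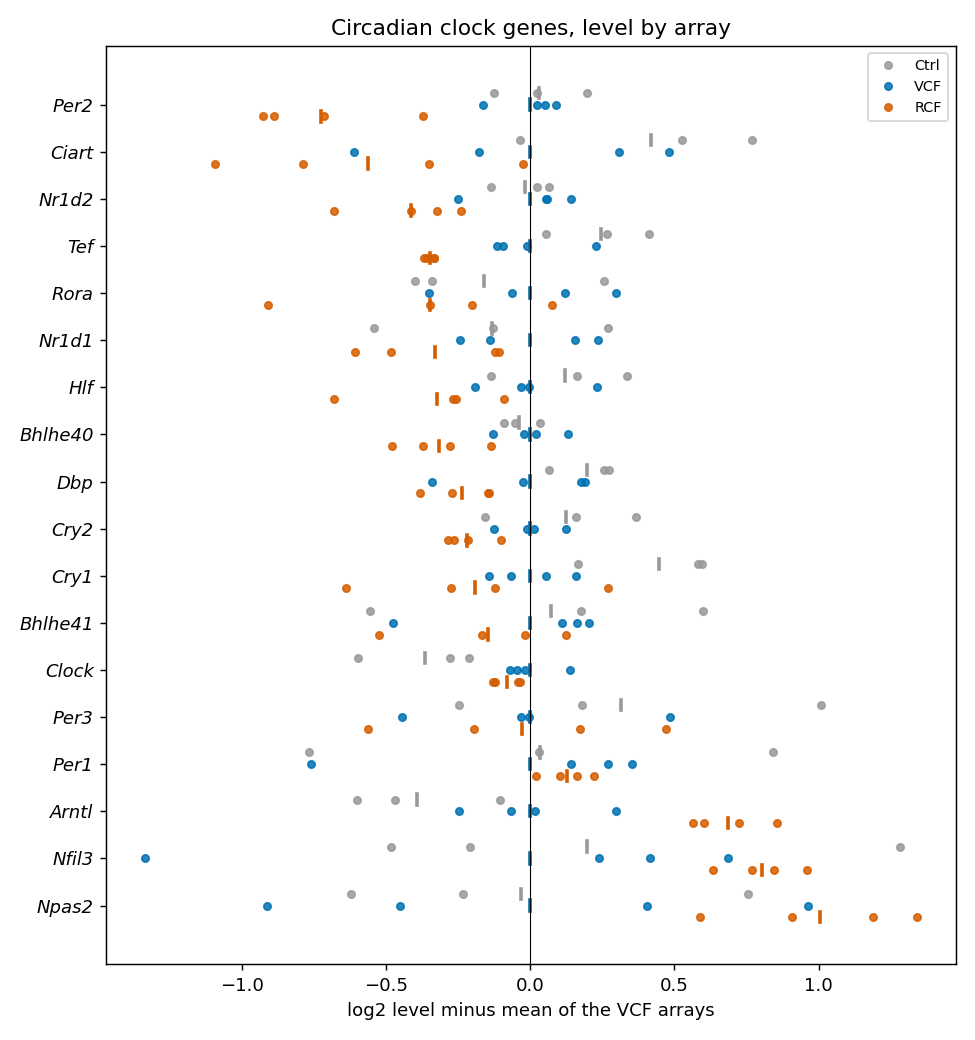
Level of tested circadian clock genes on each Ctrl (grey), VCF (blue) and RCF (orange) array, as log2 level minus the mean of the 4 VCF arrays, sorted by the difference; ticks are group means. Per2, Tef and Bhlhe40 have all orange points to the left of the blue ones and Arntl to the right, while Per1, Per3 and Clock overlap around 0.

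Promoter stretches are shown for clock genes on both sides of the loop, and for Pbld1, because the E-box is the element through which BMAL1 acts. The sequences are RefSeq's, build GRCm38.p6, written 5′ to 3′ on the gene's strand and ending before the start site, with each CACGTG in capitals. The motif is its own reverse complement, so 1 search covers both strands. Ciart is shown from chr3:95882232-95882379 (minus strand), Tef from chr15:81802511-81802586 (plus), Per1 from chr11:69098748-69098823 (plus), Pbld1 from chr10:63060538-63060613 (plus) and Arntl from chr7:113207345-113207464 (plus).
Ciart: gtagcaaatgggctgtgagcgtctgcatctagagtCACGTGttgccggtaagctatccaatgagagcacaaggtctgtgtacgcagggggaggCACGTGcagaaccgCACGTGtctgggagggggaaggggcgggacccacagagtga
Tef: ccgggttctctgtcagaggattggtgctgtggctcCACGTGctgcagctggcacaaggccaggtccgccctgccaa
Per1: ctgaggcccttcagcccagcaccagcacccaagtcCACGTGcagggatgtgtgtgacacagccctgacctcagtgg
Pbld1: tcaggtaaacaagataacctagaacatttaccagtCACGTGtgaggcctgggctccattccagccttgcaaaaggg
Arntl: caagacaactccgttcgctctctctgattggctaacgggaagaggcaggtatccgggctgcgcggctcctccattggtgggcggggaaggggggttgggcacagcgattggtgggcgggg

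The Ciart stretch holds 3 copies, 116, 58 and 44 bases before the start, and those of Tef, Per1 and Pbld1 hold 1 each, 127, 166 and 140 bases before it. The Arntl stretch holds none, nor does the rest of the 250 bases searched at its 2 start sites. Of the 19 clock genes tested, 16 were in the table and 5 of these (Bhlhe41, Ciart, Cry1, Per1 and Tef) had the motif within 250 bases of at least 1 start site. Of all 32851 promoters, counted by start site and not by gene, 6.02% hold it, so the shares are in different units. Tef, which was lower in RCF, and Pbld1, which was higher, both hold the letters, as does Fkbp5 at 169 bases. Pbld1 and Per1 each have 2 start sites, and only the one shown holds the motif. Klf9 was searched as well and holds none. A match is a description of the letters only. Per2 and Bhlhe40 were not matched.

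Glucocorticoid target genes, which the adrenal hormone corticosterone switches on through its receptor, included several lower values in RCF. Of 13 tested, 4 were higher and 9 lower, 0 passed, and the median was -0.15. At an unadjusted p under 0.05, 3 of the 13 were lower, where 1.28% of all genes were. The mean of the list relative to Ctrl overlapped between the fibres. It ranged from -0.30 to -0.034 in VCF, from -0.40 to -0.10 in RCF and from -0.31 to 0.45 in Ctrl. Fkbp5, a co-chaperone that restrains the glucocorticoid receptor, had 3 probes. Its probe among the leading genes was -3.76, -3.27, -3.97 and -3.67 in VCF and -4.98, -4.84, -4.22 and -4.54 in RCF, a difference of -0.98 (SE 0.22), and the other 2 gave -0.89 (SE 0.38) and -0.34 (SE 0.30). Against Ctrl those first 2 probes differed in sign in VCF, at 0.87 and -0.42.

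Klf9, a transcription factor induced by glucocorticoids, was 1.98, 2.18, 2.03 and 1.95 in VCF and 1.83, 1.68, 1.62 and 1.29 in RCF. The groups did not overlap, and the difference was -0.43 (SE 0.17, limma adjusted p = 0.927). Mt2, a metallothionein that binds zinc and copper and answers to metals, glucocorticoids and oxidants, was 3.95, 3.80, 3.85 and 3.70 in VCF, 3.63, 3.21, 3.27 and 3.39 in RCF and 4.83, 4.49 and 4.30 in Ctrl. Its difference was -0.45 (SE 0.17, limma adjusted p = 0.886), with no overlap between the fibres and both groups below Ctrl. Mt1 differed by -0.16 (SE 0.19), with overlap. Sgk1, a kinase of sodium transport and also a glucocorticoid target, had the opposite sign at 0.35 (SE 0.17).

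Mt2 was the 1 gene of the 23 tested for oxidative stress that was below an unadjusted p of 0.05. At that level 1.28% of all genes were lower and 1.77% higher. The list's median was -0.0055, with 10 genes higher. Cat, catalase, differed by 0.18 (SE 0.14), and Hmox1, the haem oxygenase that NRF2 induces, by -0.087 (SE 0.13). In the cytochrome P450 and aryl hydrocarbon list, 7 of 14 genes were higher and 0 were below an unadjusted p of 0.05, with Cyp2s1 at 0.32 (SE 0.18) and Fmo2 at -0.35 (SE 0.23).

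Among stress genes of the endoplasmic reticulum and of amino acid supply, a few members were lower. Hspa5, the chaperone BiP, was 5.81, 5.77, 5.92 and 5.70 in VCF and 5.41, 5.51, 5.46 and 5.40 in RCF. The difference was small but without overlap, -0.36 (SE 0.14, limma adjusted p = 0.903), and lay between -0.51 and -0.30 within slides. Dnajb1, a cofactor of HSP70, differed by 0.38 (SE 0.20) at its brightest probe and by -0.013 at another, and the 16 genes of the chaperone list had a median of -0.032.

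Cars, the cysteinyl-tRNA synthetase, differed by -0.29 (SE 0.093) and Psat1, an enzyme of serine synthesis, by -0.31 (SE 0.10), neither with overlap. Ddit3, the stress transcription factor CHOP, named after its value was seen, differed by -0.42 (SE 0.15). These 3 were the members of the 17-gene amino acid stress list below an unadjusted p of 0.05. Of all genes, 1.28% were lower at that level. Asns, at 0.087 (SE 0.16), and Atf4, at 0.092 (SE 0.18), overlapped, and the list's median was 0.073 with 10 genes higher.

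Immediate early genes, the first genes transcribed after a stimulus, were mostly higher in RCF. Of 17 tested, 14 were higher, 0 were below an unadjusted p of 0.05, and the median was 0.13. The mean of the list relative to Ctrl was 0.03 to 0.32 in VCF, 0.33 to 0.43 in RCF and -0.58 to 0.54 in Ctrl, so that both fibre groups lay within the Ctrl range. Atf3 differed by 0.65 (SE 0.35) and Egr2 by 0.39 (SE 0.19). Nr4a1 (0.55) and Klf2 (0.41), named after their values were seen, did not overlap between the groups. The RCF arrays lay wholly above the VCF arrays for 1.58% of all genes.

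Among p53 targets, which halt the cell cycle after DNA damage, Plk2 was 1.45, 1.75, 1.40 and 1.41 in VCF and 1.87, 1.97, 1.93 and 1.72 in RCF, a difference of 0.37 (SE 0.12, limma adjusted p = 0.796), with 1 VCF array above the lowest RCF array. Mdm2, the ligase that degrades p53, differed by 0.35 (SE 0.15). The other 12 of the 14 were above an unadjusted p of 0.05, including Cdkn1a, the cell cycle inhibitor p21, at -0.15, and the median was 0.050. Plk2 and Mdm2 were below that p and higher, as were 1.77% of all genes. Cell division genes leaned the other way: 5 of 26 were higher and 21 lower, with a median of -0.12 and 0 below an unadjusted p of 0.05. The slide medians were -0.53, -0.22, 0.32 and -0.066, and the scores overlapped, at -0.45 to -0.060 in VCF and -0.69 to -0.21 in RCF. Nusap1 and Ube2c, which act in mitosis, differed by -0.40 (SE 0.24) and -0.38 (SE 0.25), and Mki67 by -0.24 (SE 0.21).

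Among chemokines, Ccl12 was the only one of 25 tested CC and CXC members below an unadjusted p of 0.05. Of all genes, 1.28% were lower and 1.77% higher at that level. Ccl7 and Ccl2, which attract the same monocytes, differed by -0.38 (SE 0.31) and -0.25 (SE 0.26) and overlapped, as did Ccl17 at -0.29 (SE 0.29). In the CXC list 10 of 11 genes were higher, with a median of 0.23 and overlapping scores, at -0.69 to 0.041 in VCF and -0.48 to 0.27 in RCF. Cx3cl1, the fractalkine ligand, differed by 0.19 (SE 0.14), Cxcl12 by 0.23 (SE 0.17) and the neutrophil attractant Cxcl1 by 0.40 (SE 0.55). The neutrophil list itself had a median of -0.27, with 2 of 12 genes higher, 0 below an unadjusted p of 0.05, and Camp, a granule peptide, at -0.75 (SE 0.77). The neutrophil score ranged from -0.75 to -0.43 in VCF, from -1.23 to -0.42 in RCF and from -0.71 to 1.19 in Ctrl.

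Macrophage lists were close to the median of all genes. The alveolar macrophage list had a median of 0.018 over 15 genes, with Marco, a scavenger receptor, at 0.011 (SE 0.36) and Pparg, the factor that sets alveolar macrophage identity, at 0.022 (SE 0.093); both change sign when some single arrays are left out. The monocyte and interstitial macrophage list had a median of 0.026. The lysosome and lipid list had 16 of 20 genes higher and a median of 0.073. Its members of smallest p were Mmp12, the macrophage elastase, at 0.40 (SE 0.28), and Spp1, osteopontin, at -0.28 (SE 0.22).

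Cytokine and leukocyte genes showed wide overlap. Il1b ranged from 1.32 to 1.81 in VCF, from 1.17 to 2.69 in RCF and from 0.49 to 3.84 in Ctrl (difference 0.37, SE 0.58), and Tnf differed by 0.47 (SE 0.29). Pycard, the inflammasome adaptor ASC, differed by 0.25 (SE 0.17) without overlap. Interferon response genes were higher in 13 of 15, with a median of 0.11 and Gbp3 at 0.37 (SE 0.17). The medians within slides were -0.016, 0.027, 0.062 and 0.39.

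Among eosinophil genes, Alox15, a lipoxygenase, was -4.57, -5.79, -5.95 and -4.99 in VCF and -5.11, -4.80, -3.68 and -3.99 in RCF, against -6.16, -6.26 and -6.27 in Ctrl. The fibre groups overlapped, with a difference of 0.93 (SE 0.39, limma adjusted p = 0.939), and every fibre array lay above every Ctrl array. After normexp the difference between the fibres was 0.057. Of the other eosinophil genes, Prg2, the major basic protein, differed by -0.63 (SE 0.76) and the surface receptor Siglecf by 0.55 (SE 0.47), both with overlap. In the B and plasma cell list 9 of 11 genes were higher, with a median of 0.22, and the B cell genes Fcrla and Cr2 differed by 0.37 (SE 0.21) and 0.28 (SE 0.25). A second Cr2 probe gave -0.30. The slide medians of the list, -0.36, -0.13, 0.66 and 0.35, did not keep a sign, and its RCF scores, -0.052 to 0.26, lay within the VCF range of -0.57 to 0.52. The T cell (-0.055), killer lymphocyte (0.030), mast cell (0.040), MHC class II (0.0090) and type 2 (-0.019) lists had medians near that of all genes, with Eomes at 0.16 (SE 0.35), Mcpt4 at -0.24 (SE 0.34), H2-DMa at 0.20 (SE 0.21) and Retnla at 0.044 (SE 0.38).

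Scar and vessel genes gave few differences. Postn, a matrix protein of activated fibroblasts, was 4.04, 3.95, 4.15 and 4.34 in VCF and 3.90, 3.91, 3.72 and 3.79 in RCF (difference -0.29, SE 0.13), without overlap. Col1a1, the main collagen of scar, differed by 0.23 (SE 0.25), and the 20 genes of the collagen list had a median of -0.039. Col5a1 differed by 0.21 at its brightest probe and by -0.13 at another. Angpt2, which loosens vessels for growth, was 1.13, 1.23, 1.45 and 1.43 in VCF, 1.78, 1.75, 1.54 and 1.65 in RCF and 0.67, 1.13 and 0.87 in Ctrl, a difference of 0.37 (SE 0.12, limma adjusted p = 0.794). Wnt2, a ligand of lung mesenchyme, differed by 0.26 (SE 0.10) and overlapped. Both were above Ctrl in each fibre group, Angpt2 by 0.42 in VCF and 0.79 in RCF and Wnt2 by 0.45 and 0.72.

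Epithelial, muscle and metabolic lists had few differences, with 0 members below an unadjusted p of 0.05 in those that follow. Alveolar type 2 genes had a median of -0.012 (Lamp3 -0.16, SE 0.12, with other probes at -0.10 and 0.044; Napsa -0.13, SE 0.11), and alveolar type 1 genes a median of 0.0035 (Cldn18 -0.17, SE 0.14). Oxidative phosphorylation genes had a median of -0.019 over 20 genes, with Ndufa4 at -0.26 (SE 0.19), smooth muscle genes 0.014, with Mylk at -0.24 (SE 0.12), and pleural mesothelium genes -0.098, with Wt1 at -0.30 (SE 0.22). Motile cilia genes were higher in 15 of 16, with a median of 0.11. Their slide medians, 0.57, 0.32, 0.17 and -0.61, did not keep a sign, and the scores overlapped, at -0.30 to 0.48 in VCF and -0.088 to 0.28 in RCF.

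Over all lists, 546 distinct genes were tested. At an unadjusted p under 0.05, 6 (1.10%) were higher and 14 (2.56%) lower, beside 1.77% and 1.28% of all genes. The RCF arrays lay wholly above the VCF arrays for 5 of the 546 and wholly below for 12, beside 1.58% and 1.26% of all genes. The lists had been chosen with earlier results in view, so these counts are a description.

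**Figure D3:**
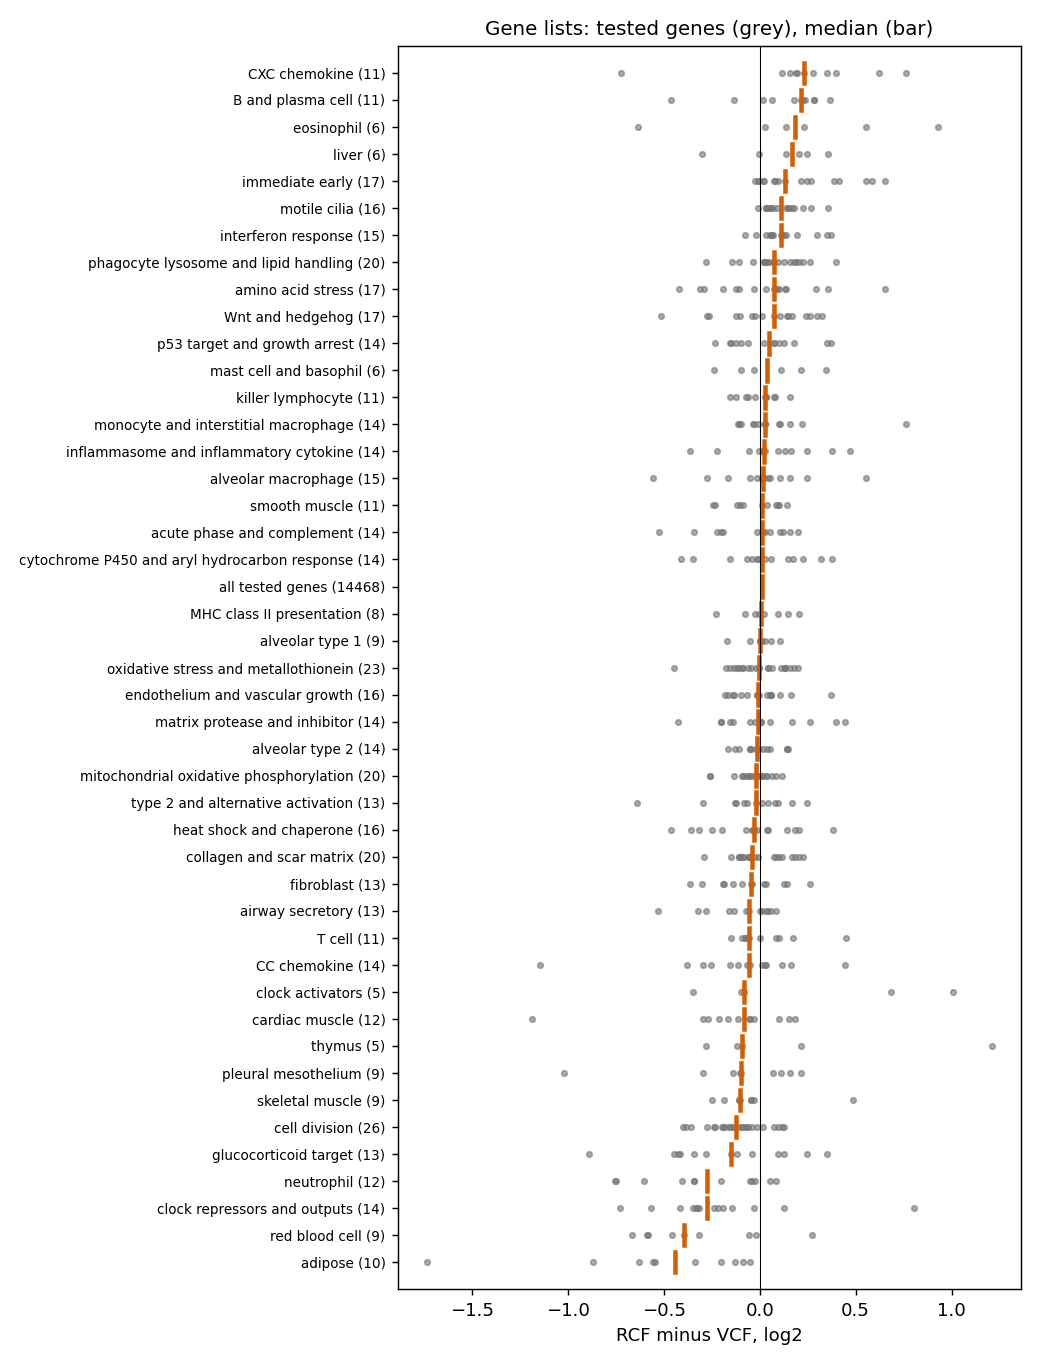
RCF minus VCF difference (log2, horizontal axis) of each tested gene in the 44 lists (grey points) and the list median (orange bar), sorted by median, with the number of tested genes in brackets and the median of all 14468 genes as a row of its own. Most medians lie close to 0; the lowest are adipose (-0.44, but 0.14 without VCF replicate 1), red blood cell (-0.39) and clock repressors and outputs (-0.28).

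Blood and carry-over tissue markers were read beside these results. Red blood cell genes were lower in RCF in 8 of 9, with a median of -0.39 and 0 below an unadjusted p of 0.05. Alas2, which starts haem synthesis in red cells, was 3.20, 3.77, 3.69 and 4.21 in VCF, 2.80, 3.24, 3.35 and 3.15 in RCF and 1.57, 2.06 and 0.71 in Ctrl (difference -0.58, SE 0.41). Hba-a1, an alpha globin whose probe cannot be separated from its near-identical copy, differed by -0.31 (SE 0.28). The score was 0.84 to 1.43 in VCF and 0.66 to 1.06 in RCF, and both ranges lay above the Ctrl range of -0.52 to 0.42. Fech, which completes haem in many cell types, differed by 0.27 (SE 0.14) at its brightest probe and by -0.19 at another. In whole-lung RNA, fewer cells of a type and less RNA per cell cannot be told apart.

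Adipose genes had a median of -0.44, with 0 of 10 higher, which rests on VCF replicate 1: without that array the median was 0.14. The score was 2.44 in VCF replicate 1 and between -0.34 and 0.55 on the other VCF and RCF arrays, and the slide holding VCF replicate 1 gave -2.52 against 0.069 to 0.50 in the others. Ucp1, the brown fat uncoupling protein, was well above background on 2 VCF arrays and 0 RCF arrays. Over the alternative settings that tested it, its difference ranged from -2.47 to -0.36. Without VCF replicate 1, RCF replicate 1 and CCF replicates 2 and 3, Lep, the fat hormone leptin, differed by 0.019 in place of -0.87. Liver genes had a score of 3.32 in RCF replicate 1 and -0.28 to 1.33 on the other 7 arrays. Ahsg and Cyp3a11, both made in liver, differed by 0.36 and 0.25 with RCF replicate 1 and by -0.080 and -0.42 without it.

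Cardiac muscle genes, which the pulmonary vein wall expresses, ranged in score from -1.99 to 2.09 in VCF and from -1.22 to 1.73 in RCF, with a median difference of -0.083 and Nppa at -1.19 (SE 2.17). Skeletal muscle and thymus lists had medians of -0.10 and -0.091. The adipose, liver, cardiac muscle, skeletal muscle and thymus scores overlapped between the RCF and VCF arrays, and their part in the differences above was not tested. Without the 4 arrays raised in liver, thymus or adipose genes, 0 probes passed and 1023 were below an unadjusted p of 0.05.

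**Figure D4:**
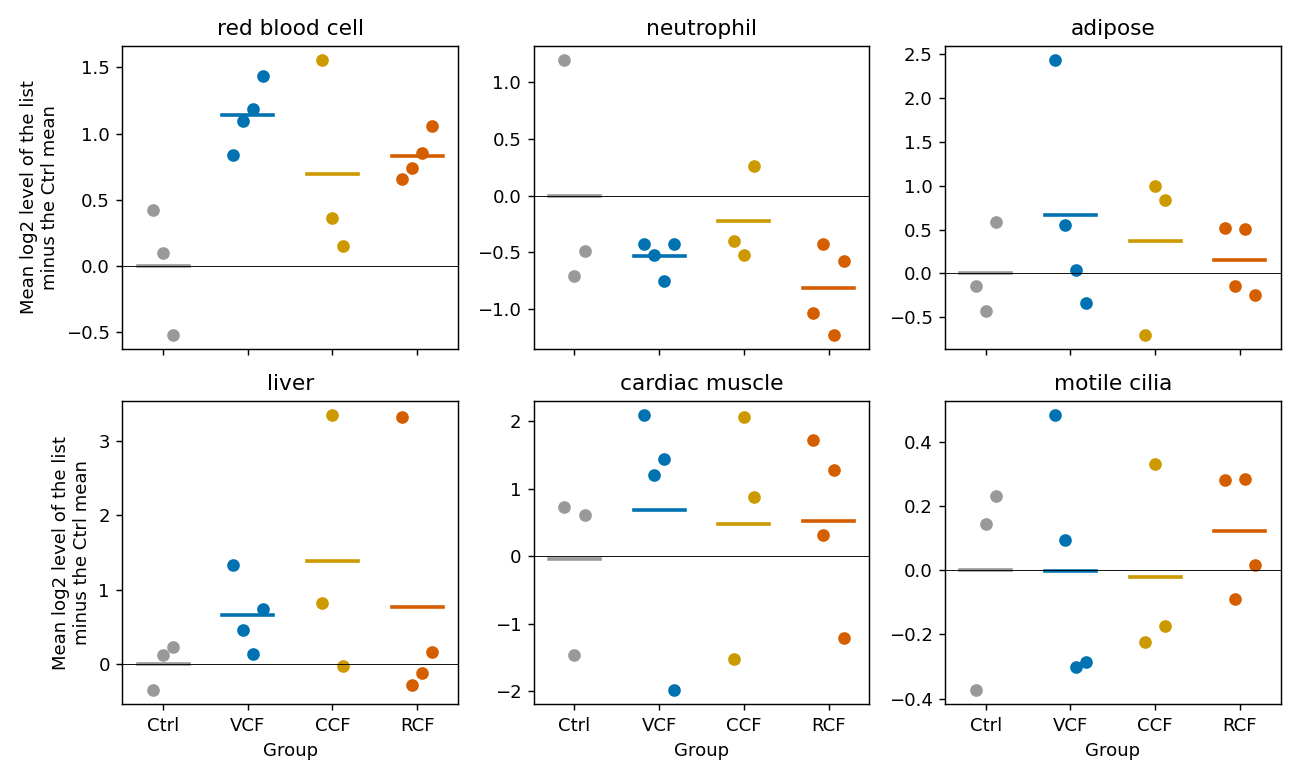
Mean log2 level of 6 marker lists on each array, relative to the Ctrl mean, by group (points are arrays, lines are group means). Red blood cell scores lie above Ctrl in both fibre groups, 1 VCF array reaches 2.44 for adipose and 1 RCF array 3.32 for liver, and in every panel the VCF and RCF points overlap.

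Probes designed on cDNA clones differed in their distribution from those designed on reference mRNAs. The array holds 4089 tested probes whose target is a sequenced mouse cDNA clone, none of which could be tied to a gene symbol here, beside 21109 on RefSeq mRNAs. Of the clone probes 602 (14.7%) were lower and 76 (1.86%) higher in RCF at an unadjusted p under 0.05, against 325 (1.54%) lower and 320 (1.52%) higher among mRNA probes. Their differences had 2 humps: 26.0% of clone probes lay below -0.5, against 1.98% of mRNA probes, while 3.15% and 1.34% lay above 0.5. The medians were -0.12 and -3.0e-05. The lean was not particular to clone probes. Of 328 probes on assembled consensus sequences, 38 (11.6%) were lower and 2 (0.610%) higher at that level, with a median of -0.11. Probes on other GenBank sequences were lower in 4.98% and higher in 1.53%, and Ensembl probes in 2.31% and 2.46%. The pattern of the clone probes was noticed in the data and is given without a test. After normexp only 37 of all tested probes were below an unadjusted p of 0.05. The percent of clone cDNA (AK) probes lower at unadjusted p under 0.05 was then 0.220 and the clone median -0.10. The median of all tested probes also moved, to -0.049 from -0.014, so the clone probes lay closer to it than in the main fit.

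Clone probes were dimmer, with a median level of -4.52 against -0.71, and brightness moved with the share. With all tested probes ranked by brightness and split into 4 equal sets, 18.6% of clone probes and 1.98% of mRNA probes were lower in the dimmest set, 16.6% and 1.81% in the next, 4.08% and 1.72% in the one above, and 0.364% and 0.902% in the brightest. Among probes well above background on all 14 arrays the shares were 11.7% and 1.48%. The part of brightness in the result was not tested beyond these sets.

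By array, the median deviation of clone probes from their own mean was 0.13, 0.19, 0.17 and 0.086 in VCF and -0.049, -0.056, 0.053 and 0.065 in RCF. Ctrl gave -0.23, 0.00044 and 0.026, and CCF -0.16, 0.076 and -0.10. Every VCF array was above every other array. For mRNA probes the same medians stayed between -0.032 and 0.038. The median difference of all clone probes was negative in each slide, between -0.20 and -0.052.

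The 3 probes with the smallest p of the whole comparison belong to this class. A_52_P811068 was -6.20, -5.75, -6.15 and -5.94 in VCF and -7.87, -7.42, -7.41 and -7.80 in RCF (difference -1.62, SE 0.21, limma adjusted p = 0.109). It was well above background on 4 VCF and 0 RCF arrays, so that its level was at least 1.68-fold higher in VCF. A_52_P810735, above background on all 8, was -3.76, -3.03, -3.72 and -3.86 in VCF and -5.91, -5.69, -4.73 and -5.55 in RCF, a difference of -1.88 (SE 0.27, limma adjusted p = 0.109). Ctrl lay with RCF, at -5.32, -5.50 and -4.66. A_51_P314788 differed by -1.44 (SE 0.20) and was well above background on 3 VCF and 0 RCF arrays. With slide as a block it passed (limma adjusted p = 0.0183), but with that block on the 8 fibre arrays alone 0 probes passed, the smallest adjusted p being 0.143.

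**Figure D5:**
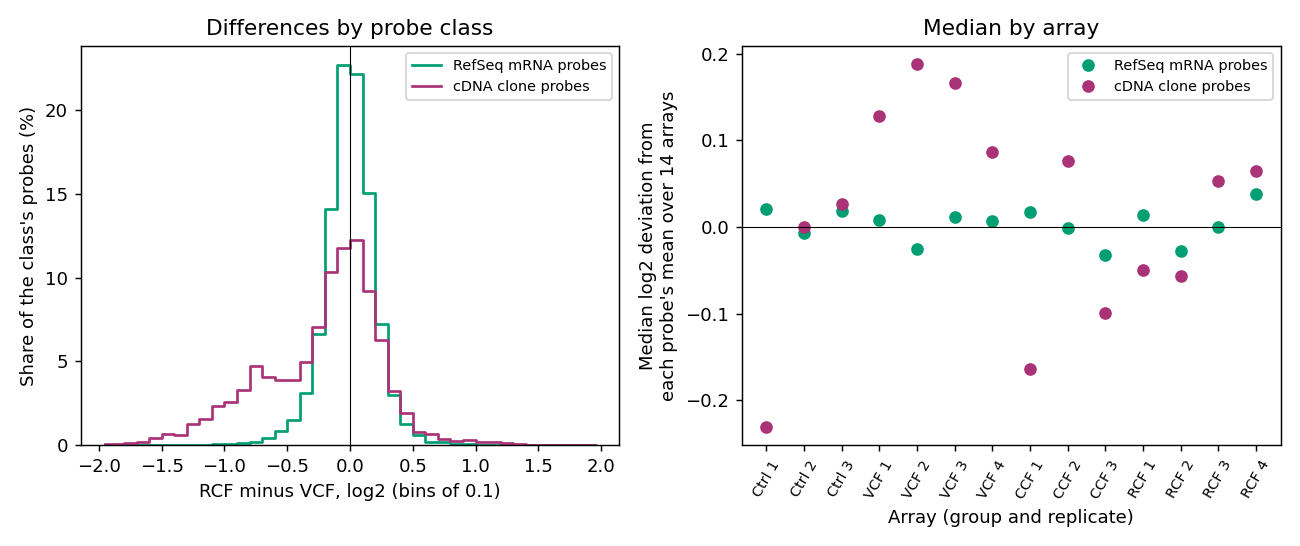
Left, share of probes (%) by RCF minus VCF difference in log2 bins of 0.1, for probes on RefSeq mRNAs (green) and on cDNA clones (purple); right, median log2 deviation of each class from its probes' own means on each of the 14 arrays. The clone probes have a second hump below -0.5 that the mRNA probes lack, and the 4 VCF arrays hold the 4 highest clone medians.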

How the data were processed

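Lung RNA of 14 mice was labelled with Cy3 and hybridised to Agilent arrays, which the authors scanned and quantified, per the file headers, in Agilent's Feature Extraction software (version 10.7.3.1). The deposited processed signal is an intensity, already background-subtracted by the scanner software. The values the authors deposited per probe are log2 intensity minus a constant per array (for single-spot probes within 0.01), and served as an alternative. Flags for spots well above background are deposited beside the intensity. Group came from each array's title.

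Control spots (1639 of 45018) were left out, as were spots flagged as outliers, spots of a probe were averaged, and log2 values were taken minus each array's 75th percentile. A probe was tested (29269 of 41174) if 3 or more of all 14 arrays flagged it well above background. limma 3.58.1 (R 4.3.3, with files read by the data.table package, version 1.17.8) was fitted to all 14 arrays with 1 mean per group (10 residual degrees of freedom) and the contrast RCF minus VCF, two-sided, with Benjamini-Hochberg adjustment over all tested probes and a threshold of 0.05. The fit was tested on simulated data. Symbols came from RefSeq's GRCm38.p6 annotation by accession, giving a single symbol for 24844 probes and none for 16330. The array's own coordinates were not used.

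The members and lists were chosen with earlier results of these data known. Named genes are 10 in each direction of smallest p among genes whose RCF and VCF arrays do not overlap and which were well above background on all 4 arrays of the brighter group, the 2 members of smallest p in each list described, and a panel of 20 genes; a few of these genes are not reported here. A gene in a list stands at its brightest tested probe. The "at least" fold is given only where all 4 arrays of the brighter group were well above background. It sets that group's mean against the higher, per array, of the dim probe's signal and the lowest signal well above background. Alternatives were background correction (normexp with an offset of 50, on the median spot signal), normalization, filters, slide, position and replicate blocks, array weights, the authors' deposited values and fewer arrays. Replicate numbers were not used to pair the arrays in the main fit. Deviations of same-numbered VCF and RCF arrays correlated at 0.23, 0.11, -0.18 and 0.35, and those of differently numbered arrays between -0.28 and 0.34. Figures were drawn with matplotlib.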

Additional observations from a re-analysis of the deposited data

Results flagged for a closer look

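A gap test within each group of 4 arrays marked 18 of 312 sets of values, 1 array standing far from the other 3; chance marks about 5% of such groups, 1 in 20. Among the leading genes, VCF replicate 4 was at -1.23 for Map2k6 (the others between -1.80 and -1.74) and at -0.58 for Medag (the others between -0.33 and -0.28), VCF replicate 1 was at -4.14 for Depdc7 (the others between -3.74 and -3.71), and RCF replicate 4 was at 3.74 for Mpzl1 (the others between 3.82 and 3.83). Among list members in VCF, Plk2 was at 1.75 in replicate 2, Muc1, a mucin, at -1.08 in replicate 4, and Orm1, an acute phase protein, and Arg1, arginase, at -2.96 and -3.01 in replicate 1. In RCF, replicate 2 was at -5.33 for the collagenase Mmp13, replicate 3 at 4.83 for Cox6c, a subunit of cytochrome oxidase, and replicate 4 at 3.78 for Cxcl12.

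Among the list scores, relative to Ctrl, the liver score of 3.32 in RCF replicate 1 had the widest gap, the others lying between -0.28 and 0.17. The alveolar macrophage score was -0.40 in VCF replicate 2, the glucocorticoid score -0.30 in VCF replicate 3 and the oxidative stress score -0.18 in VCF replicate 1. In RCF, the clock activator score was 0.28 in replicate 3, the fibroblast score -0.0083 in replicate 4 and the killer lymphocyte score -0.029 in replicate 2.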

How the results depend on the processing

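Under the alternatives run, between 0 and 3 probes passed. Slide as a block passed 1 (A_51_P314788, -1.44, adjusted p = 0.0183) and array weights 3 (that probe, A_52_P811068 and Prdm8 at 1.07, adjusted p = 0.0359). Leaving out 1 array gave 0 to 1, and the 1 was always a cDNA clone probe: A_52_P360076 without Ctrl replicate 1, A_52_P408518 without VCF replicate 1, A_52_P811068 without CCF replicate 1 or 3, and A_52_P810735 without RCF replicate 3. The replicate block passed 0, with a smallest adjusted p of 0.0692. VCF replicates 1 and 4 correlated best with the RCF array of their own number. VCF replicates 2 and 3 correlated best with RCF replicates 3 and 1, respectively, which shared their slides. VCF replicate 4 also shared its slide with RCF replicate 4, but VCF replicate 1 did not share its slide with RCF replicate 1. Arrays sharing a slide correlated at 0.025, 0.34, 0.096 and 0.35 for VCF replicates 1 to 4. The slide block on the 8 fibre arrays alone passed 0, with a smallest adjusted p of 0.143. The 20 leading genes kept their direction in every alternative that tested them, but not their size: after normexp Cdc14b was 0.0083, Depdc7 0.059 and Pbld1 0.12. Leaving out arrays could not reverse that direction, because these genes were chosen for not overlapping between RCF and VCF. Their kept direction in those alternatives therefore follows from the choice and gives no support.

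The percent of clone cDNA (AK) probes lower at unadjusted p under 0.05 was 0.220 after normexp, where the median standard error was 0.355 in place of 0.187, 7.71 without a filter on dim probes, and 25.2 with only the 8 fibre arrays and a slide block. Leaving out 1 array gave 8.14 (VCF replicate 2) to 17.9 (Ctrl replicate 1), with 8.66 without RCF replicate 1.

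Of 116 named genes, 14 changed sign in at least 1 alternative. After normexp, Dbp was 0.015, Mmp12 -0.012, Spag6, a cilium gene, -0.021 and Arg1 -0.063. Without the 4 arrays raised in liver, thymus or adipose genes, Lep was 0.019, Ahsg (A_51_P424854) -0.0044 and Cyp3a11 -0.24. Marco was -0.0030 after cyclic loess and -0.046 with array weights. Leaving out 1 array gave ranges of -0.17 to 0.19 for Marco, -0.12 to 0.25 for Retnla, -0.031 to 0.070 for Pparg, -0.048 to 0.46 for Eomes, -0.078 to 0.53 for Fcer1a, an IgE receptor chain, -0.080 to 0.61 for Ahsg, -0.42 to 0.60 for Cyp3a11, -0.36 to 0.081 for Prf1, perforin, and -2.34 to 0.084 for Nppa. The cause was not tested.

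Precision is limited by the number of arrays, and where all arrays of a group missed the background criterion, a probe gives at most a bound.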
